A study of Neurospora crassa with 6 samples.

Results

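The stage change of a mutant of the filamentous ascomycete *Neurospora crassa* lacking *mak-1* is described here, as the ratio of each transcript level on sexual-induction medium (S) to its level in vegetative hyphae (A). The genes considered were those above 10 RPKM in at least 1 of these libraries of Δ*mak-1*, which gave 6359 of the 9872 entries of the deposited table. RPKM is the number of reads per kilobase of gene model, scaled to the mapped reads of the library.

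RNA was sequenced from Δ*mak-1*, Δ*mak-2* and wild-type strains, each at S and at A, which gives 6 libraries. All strains came from a public stock collection. Both mutants are listed as mating type *a*, which of the listed wild types was sequenced is not given, and the Δ*mak-1* mutant is a single deletion strain. For S, strains stood for 3.5 days at 25°C, without light, on cellophane that covered synthetic crossing medium with 0.1% sucrose. For A, they were shaken for 22 h at 28°C in liquid Vogel's medium with glucose, with no light condition given. Medium, sugar, temperature, age, surface and possibly light therefore changed together with the stage, and their parts in a ratio cannot be told apart. The RNA of repeat cultures was mixed before sequencing, so that each condition is 1 library, no ratio has a replicate check and no p-value can be given. Each interval given with a ratio is the exact 95% interval for the read counts behind it and covers counting error only. In mixed hyphae, a lower share of cells of one type and less RNA per cell cannot be told apart.

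MAK-1 is the MAP kinase of the cell wall integrity (CWI) pathway of *N. crassa*, and MAK-2 is that of the pheromone response pathway, which also serves hyphal fusion. Another cascade, ending in OS-2, responds to osmotic stress. When nitrogen is scarce, hyphae of this fungus form protoperithecia, the female organs from which fruiting bodies grow after mating, while in air and light they form aerial hyphae and orange, carotenoid-rich conidia. It also secretes a large set of cellulases and hemicellulases when preferred sugars run out.

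Depth was 3668046 mapped reads at S and 3358476 at A in Δ*mak-1*, and 2602076 to 3371962 in the other 4 libraries. A level of 10 RPKM in a gene of median length corresponded to 50.1 reads at S and 45.8 reads at A in Δ*mak-1*. The 10 genes with the most reads held 8.0% of the reads at S and 17.2% of those at A. The part of this difference in the ratios of the other genes was not tested. *mak-1* itself had 6.08 RPKM at S (52 reads) and 6.39 RPKM at A (50 reads) in Δ*mak-1*, against 148 RPKM at S and 42.1 RPKM at A in the wild type, so the low level fits the label, although reads were present. The study prints no *mak-1* signal for this mutant at either stage, unlike the deposited values used here. The gene model of *mak-1* overlaps that of its neighbour NCU09843 in the RefSeq annotation of assembly NC12. NCU09843 had 161 RPKM at S and 751 RPKM at A in Δ*mak-1*, against 14.3 RPKM and 2.07 RPKM in the wild type. Whether the counting used strand is not given, so reads of the overlap cannot be assigned. Markers of sexual tissue other than *fsd-1* were under 10 RPKM at both stages in Δ*mak-1*. The study lists the 6 markers as lowered in both mutants at S in these libraries, so low levels are no independent evidence. The summed level of the 6 found in the table was 94.9 RPKM at S and 62.4 RPKM at A, most of it *fsd-1*, and *app*, *poi-2*, *mld-1* and *per-1* each stayed under 10 RPKM. In the wild type, the same sum was 3229 RPKM at S and 112 RPKM at A. Markers of conidia and aerial hyphae, 10 in number, summed to 15976 RPKM at S and 2981 RPKM at A in Δ*mak-1*, against 1022 RPKM at S and 2740 RPKM at A in the wild type. Of the mutant's sum at S, *con-10* gave 12747 RPKM, and without it, an alternative chosen after seeing the data, the sums were 3229 RPKM at S and 2978 RPKM at A in Δ*mak-1*, against 620 RPKM and 2634 RPKM in the wild type. Of the 9 markers measured in Δ*mak-1*, 4 rose and 4 fell, with a median ratio of 0.562. Of the 6 above 10 RPKM at A, 1 rose and 4 fell, and the others had to be higher at S to be measured.

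A large part of the transcripts of Δ*mak-1* changed between the stages, with more genes higher at S than lower. A gene is said to have risen or fallen where its ratio was above 2 or below 0.5. By this rule 2073 genes rose (32.6% of the 6359) and 603 fell (9.48%), while 3683 passed neither threshold. The median ratio was 1.42, and the middle 90% of genes lay between 0.316 and 16.5. More than 10-fold increases were seen for 451 genes and more than 10-fold decreases for 74. The whole counting interval lay past the threshold for 1448 of the genes that rose and 456 of those that fell. Of genes near the rule's edges, 126 had a ratio between 2 and 2.1, and 134 between 1.9 and 2. In the wild type, the same rule gave 2894 genes that rose (46.5% of 6225) and 643 that fell (10.3%), with a median ratio of 1.86. In Δ*mak-2*, it gave 2524 that rose (41.4% of 6103) and 574 that fell (9.41%), with a median of 1.69. The split between risen and fallen genes depends on how libraries are scaled. As deposited, 77.5% of the genes called in Δ*mak-1* were higher at S, whereas scaling by the median of ratios gave 54.0% (1266 higher and 1080 lower) and scaling by the upper quartile gave 57.6% (1343 and 987). These scalings moved the median log2 ratio of Δ*mak-1* from 0.51 as deposited to -0.05 and 0.02, and that of the wild type from 0.90 to 0.02 and 0.01. A group's ratios are therefore best read against the median over all genes of the same strain.

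By the 2-fold rule and the RPKM minimum, about as many of the wild type's increases were called in Δ*mak-1* as were not. Of the 2894, 1500 (51.8%) rose in the mutant as well, 1181 (40.8%) passed neither threshold, 192 (6.63%) were under 10 RPKM in both mutant libraries, and 21 (0.726%) fell. Of the 643 that fell in the wild type, 352 (54.7%) fell in Δ*mak-1*, 194 (30.2%) passed neither threshold, 53 (8.24%) were under the minimum and 44 (6.84%) rose. Without these cuts, the ratio in Δ*mak-1* was above 1 for 2675 of the 2894 and below 1 for 522 of the 643. The median ratio in Δ*mak-1* was 1.42 for the 1181, as over all its genes, and 2.42 for the 192 under the minimum. In Δ*mak-2*, 1892 (65.4%) of the wild type's increases and 381 (59.3%) of its decreases were called in the same direction. The stage ratios of the 3 strains share no library. Across 6255 genes, which are not independent replicates, the log2 ratios of Δ*mak-1* and the wild type had a Pearson's r of 0.730 and a Spearman's rho of 0.676, and those of Δ*mak-1* and Δ*mak-2* had 0.842 and 0.776 over 6241 genes. The shares shared with the wild type stayed near these values under median-of-ratios scaling, at 51.4% of increases and 53.8% of decreases, and were 66.1% and 41.3% under β-tubulin scaling.

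**Figure D1:**
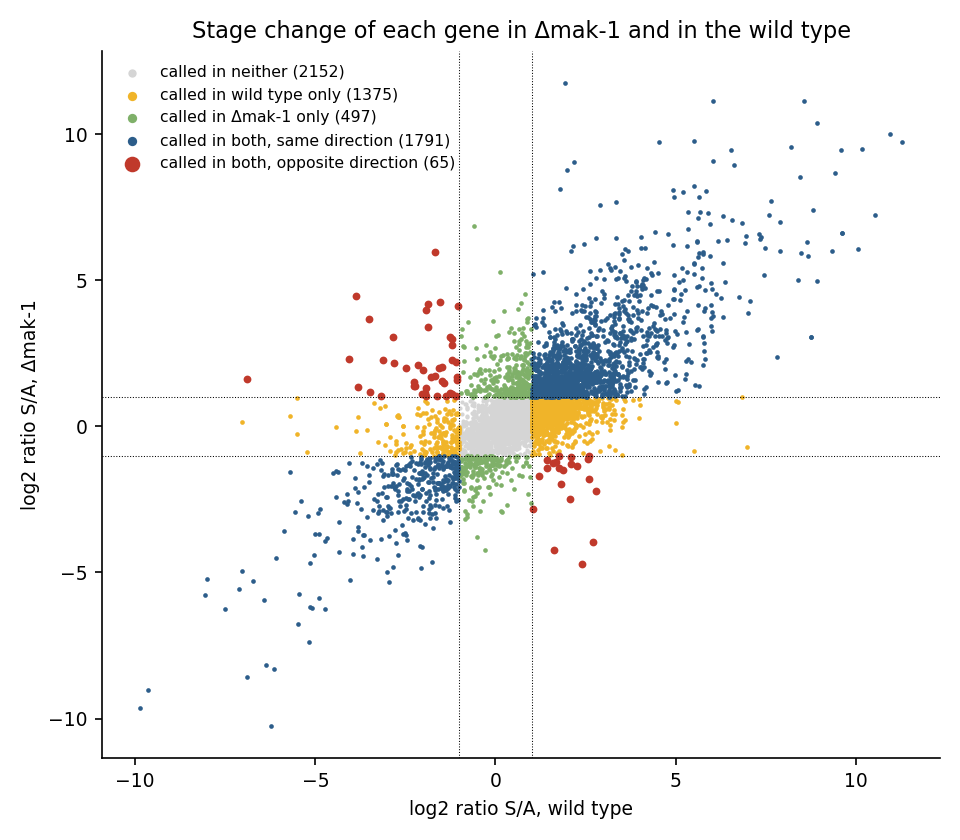
Log2 of the S/A ratio of each gene in Δ*mak-1* (vertical axis) against that in the wild type (horizontal axis), with 1 point per gene and dotted lines at 2-fold, for the 5880 genes with a ratio in both strains and an RPKM above 10 in each. The 1791 plotted genes called in the same direction lie at the upper right and lower left, the 1375 called in the wild type only lie between the horizontal lines, and 65 lie in the opposite quadrants.

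Both mutants kept 1264 of the wild type's increases (43.7%), while 236 (8.15%) were kept by Δ*mak-1* alone, 628 (21.7%) by Δ*mak-2* alone and 766 (26.5%) by neither. For decreases, 287 (44.6%) were kept by both mutants, 65 (10.1%) by Δ*mak-1* alone, 94 (14.6%) by Δ*mak-2* alone and 197 (30.6%) by neither. The larger changes of the wild type were called more often in Δ*mak-1*, up to 100-fold. Of increases between 2-fold and 4-fold, 35.5% of 1548 were called, against 65.9% of 810 between 4-fold and 10-fold and 80.8% of 412 between 10-fold and 100-fold. Above 100-fold the share was 67.7% of 124, of which 71 had no read at A in the wild type, and 38 were under the RPKM minimum in Δ*mak-1*. A gene near the threshold in the wild type can pass it or miss it by counting error alone, so the lowest class is the least certain.

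**Figure D2:**
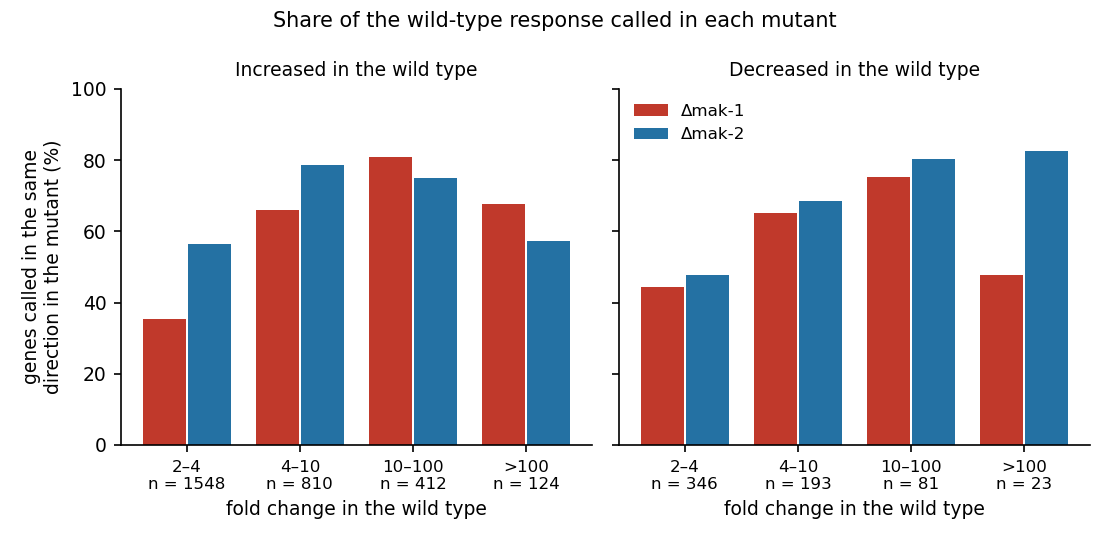
Share (%) of the genes increased (left) or decreased (right) in the wild type that were called in the same direction in Δ*mak-1* and in Δ*mak-2*, by the size of the wild-type change, with the number of genes under each pair of bars. For increases of 2-fold to 4-fold the bar of Δ*mak-1* stands at 35.5% and that of Δ*mak-2* at 56.6%.

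The increases not called in Δ*mak-1* can be followed by their levels at each stage. Over the 1181 genes that rose in the wild type and passed neither threshold in Δ*mak-1*, the median level was 38.9 RPKM at S and 29.3 RPKM at A in Δ*mak-1*, against 47.9 RPKM at S and 15.6 RPKM at A in the wild type. The level at A was above that of the wild type in 1123 of the 1181, against 4567 of the 6642 genes above the minimum in either strain. The level at S was below that of the wild type in 815 of the 1181, against 3025 of the 6642. These are levels as deposited. With each library scaled by the median of ratios, which for levels was also chosen after seeing the data, the medians of the 1181 were 29.2 at S and 31.6 at A in Δ*mak-1*, against 38.7 at S and 22.1 at A in the wild type, so that both stages differed. The choice of genes changed in 1 strain and not in the other fixes part of these differences. Genes that rose in both strains had medians of 45.9 RPKM at S and 9.52 RPKM at A in Δ*mak-1*, and 45.6 RPKM at S and 7.37 RPKM at A in the wild type.

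Genes for the breakdown of plant polysaccharides rose in Δ*mak-1* as in the wild type. Of 25 genes for cellulases, xylanases, accessory enzymes and lytic polysaccharide monooxygenases, 21 rose and the other 4 were under the minimum at both stages. Only 5 of the 25 were above 10 RPKM at A, and a gene that passed the minimum through its level at S had to be higher there, so the count is a description. The 21 also rose in the wild type, where 23 of the 25 did. Their summed level was 21726 RPKM at S and 444 RPKM at A in Δ*mak-1*, and 30652 RPKM at S and 416 RPKM at A in the wild type. *cbh-1*, a cellobiohydrolase, had 4454 RPKM at S and 6.27 RPKM at A in Δ*mak-1*, a ratio of 710 (interval 505 to 1031), while the wild type had 6569 RPKM and 5.64 RPKM. *gh6-2*, a second cellobiohydrolase, had 3803 RPKM at S and 22.7 RPKM at A, a ratio of 167 (139 to 204). *gh5-1*, an endoglucanase, had 1513 RPKM at S and 1.78 RPKM at A, a ratio of 851 (413 to 2118). For these 3 genes the reads at S numbered 25583, 20297 and 6508, and those at A 33, 111 and 7. *gh61-4* had 2599 reads at S and 0 at A, at least 793-fold higher at a floor of 3 reads. *gh61-9* was the exception in size, with 1753 RPKM at S and 344 RPKM at A, a ratio of 5.10. Of the 4 members under the minimum in Δ*mak-1*, *gh7-4* and *gh61-8* had 4.84 and 3.02 RPKM at S in Δ*mak-1*, and rose in the wild type, where they had 11.2 and 12.2 RPKM at S.

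The sugar transporter genes named here rose as well, while the regulators of these enzymes differed among themselves. Of 9 measured genes, 7 rose in Δ*mak-1* (77.8%, against 32.6% of all genes) and 1 fell, and 6 of those 7 rose in the wild type. Of the 5 above 10 RPKM at A, 3 rose and 1 fell, and the others had to be higher at S to be measured. The cellodextrin transporter gene *cdt-2* had 1454 RPKM at S and 0.566 RPKM at A (3 reads), a ratio of 2568 (878 to 12455). *cdt-1*, the other cellodextrin transporter gene, had 282 RPKM at S and 3.42 RPKM at A, a ratio of 82.5 (53.3 to 135) in Δ*mak-1*, close to the 85.1 of the wild type. *hgt-1*, a high-affinity glucose transporter gene, had 1281 RPKM at S and 0.568 RPKM at A in Δ*mak-1*, against 418 RPKM and 1.10 RPKM in the wild type. These transporter genes were among the strongest increases of the mutant. *clr-1*, an activator of cellulase genes, had 43.8 RPKM at S and 5.18 RPKM at A, a ratio of 8.45 (6.06 to 12.1), and 7.06 in the wild type. *clr-2* and *xlr-1*, further activators of the cellulase and xylanase genes, stayed under 10 RPKM. The exception was *cre-1*, for the repressor that mediates carbon catabolite repression, which fell in Δ*mak-1*, with 166 RPKM at S and 706 RPKM at A (ratio 0.235, interval 0.222 to 0.25), while the wild type had 335 RPKM at S and 390 RPKM at A. Invertase (*inv*) rose in Δ*mak-1*, with 425 RPKM at S and 80.8 RPKM at A, a ratio of 5.26, and had 41.2 RPKM and 42.8 RPKM in the wild type.

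Of 8 measured genes of nitrogen assimilation, 3 (37.5%) rose in Δ*mak-1*, near the 32.6% of all genes, and the list's median ratio was 0.938. The nitrate reductase gene *nit-3* had 160 RPKM at S and 19.9 RPKM at A in Δ*mak-1*, a ratio of 8.08 (6.97 to 9.41), against 10.4 in the wild type. *am*, the NADP-dependent glutamate dehydrogenase gene, rose too, with 2537 RPKM at S and 352 RPKM at A, a ratio of 7.2 (6.86 to 7.56), against 27.0 in the wild type. Both strains reached about the same *am* level at S, since the wild type had 2590 RPKM at S and 96.1 RPKM at A. *gln-1*, a glutamine synthetase gene, did not pass a threshold, with 267 RPKM at S and 377 RPKM at A in Δ*mak-1* (ratio 0.708), against 671 RPKM at S and 110 RPKM at A in the wild type (ratio 6.12). In the wild type 4 of 8 rose, near its 46.5% over all genes, and 2 of these also rose in Δ*mak-1*, while under median-of-ratios scaling 2 rose and 4 fell in Δ*mak-1* and 3 rose in the wild type. The copper transporter gene *tcu-1*, which the study had picked for female fertility on these libraries, had 1918 RPKM at S and 19.7 RPKM at A in Δ*mak-1*, a ratio of 97.5 (73.2 to 133), and 7240 RPKM at S and 9.19 RPKM at A in the wild type, a ratio of 788.

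**Figure D3:**
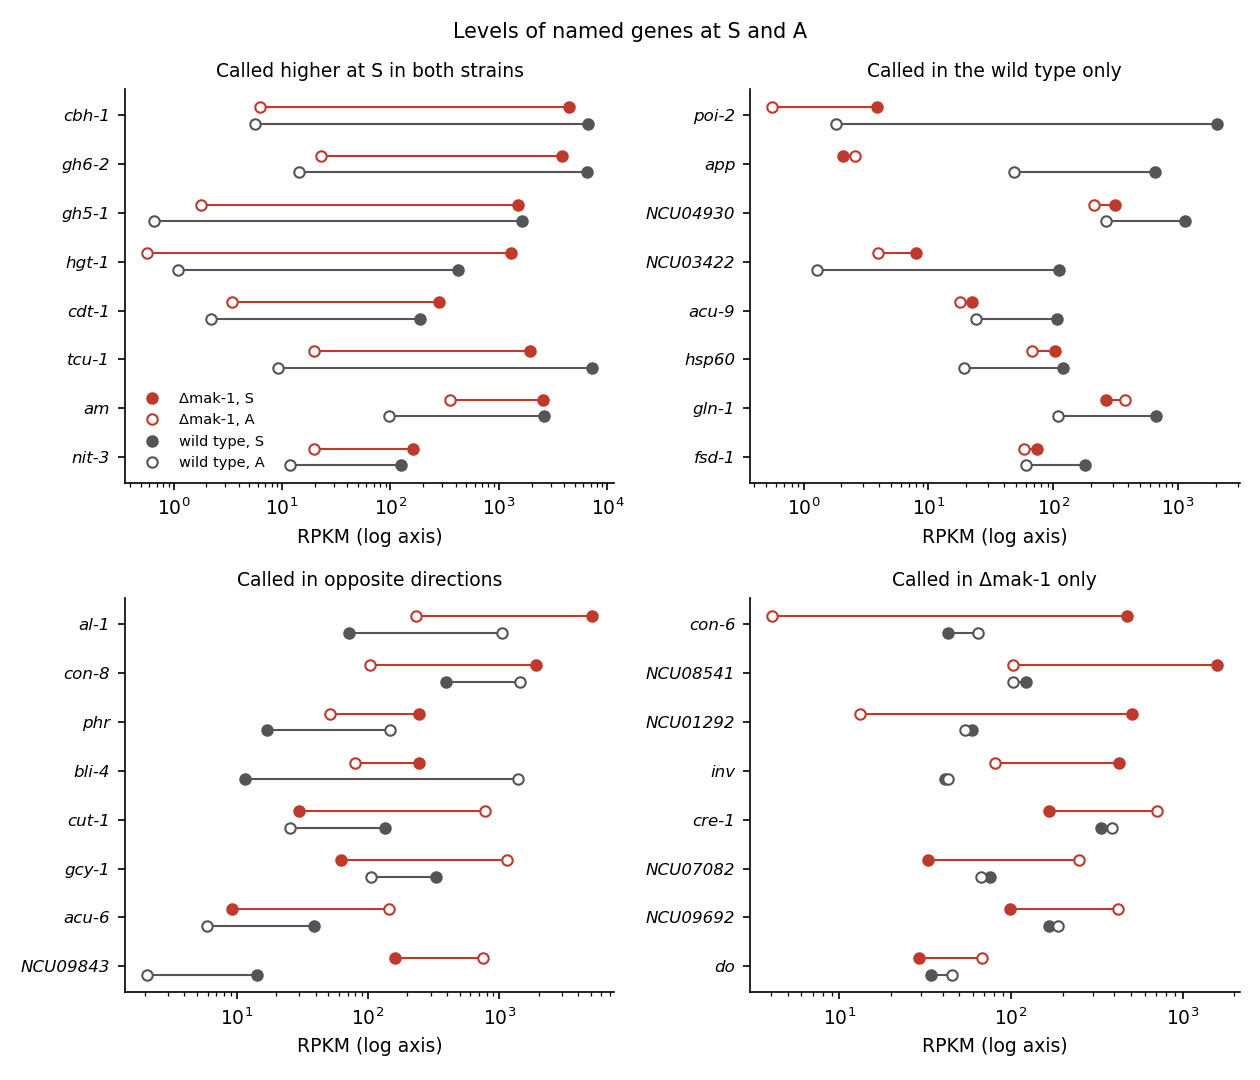
RPKM (log axis) of 32 named genes at S (filled) and A (open) in Δ*mak-1* (red) and the wild type (grey), in 4 groups by their calls. The cellulase gene *cbh-1* stands at 4454 RPKM at S and 6.27 RPKM at A in the mutant, *app* has both mutant points under 3 RPKM, and the filled and open points of *al-1* change places between the strains.

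The genes that fell most in Δ*mak-1* mainly fell in the wild type as well. The pyruvate decarboxylase gene *cfp* had 124 RPKM at S and 9011 RPKM at A in Δ*mak-1*, a ratio of 0.0138 (0.0129 to 0.0147), against 0.0280 in the wild type. *mtr*, an amino acid permease gene, had 1.16 RPKM at S and 71.4 RPKM at A, a ratio of 0.0162, against 0.0117. NCU07232, annotated in the deposited table as responding to light, had 4.68 RPKM at S and 3716 RPKM at A in Δ*mak-1*, and 24.7 RPKM at S and 22831 RPKM at A in the wild type. Of the clock-controlled genes, *ccg-13* had 246 RPKM at S and 13500 RPKM at A in Δ*mak-1*, a ratio of 0.0182, and *ccg-14* had 121 RPKM at S and 4514 RPKM at A, a ratio of 0.0269. Both ratios were 0.00387 or lower in the wild type, so the 2 genes fell further there. NCU01633 was the deepest decrease in Δ*mak-1* among genes with at least 50 reads, with 3.01 RPKM at S and 3648 RPKM at A, a ratio of 0.000826 (0.000517 to 0.00125), against 0.0134 in the wild type. Only NCU00992 among the 15 deepest decreases was not called in the wild type, where it was under 10 RPKM in both libraries. Of 11 measured genes of steroid biosynthesis, which makes the sterols of the membrane, 5 fell (45.5%, against 9.48% of all genes) and 1 rose in Δ*mak-1*, with a median ratio of 0.510. In the wild type 4 of 11 fell (10.3% of all genes did) and 2 rose, with a median of 0.717. Under median-of-ratios scaling 7 of 11 fell in Δ*mak-1* (median 0.355) and 6 of 11 in the wild type (median 0.409), and 1 rose in each. NCU06402 had 211 RPKM at S and 3092 RPKM at A in Δ*mak-1*, with 207 RPKM at S and 2332 RPKM at A in the wild type. *erg-1*, which had 59.0 RPKM at S and 177 RPKM at A in Δ*mak-1*, passed neither threshold in the wild type, with 46.4 RPKM and 64.7 RPKM.

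Known sexual development genes that rose in the wild type were not called in Δ*mak-1*. These lists, like those of melanin synthesis and of female fertility, were picked by the study on these libraries. Their counts and levels are a description and no independent evidence of direction or of the level at S. Of 6 known sexual development genes, 5 were under 10 RPKM in both libraries of Δ*mak-1* and 0 were called there, while all 6 rose in the wild type (4 under median-of-ratios scaling). *poi-2*, a gene with a role in perithecium formation, had 3.84 RPKM at S and 0.560 RPKM at A in Δ*mak-1*, which is 15 and 2 reads, against 2072 RPKM at S and 1.81 RPKM at A in the wild type. *app*, for an abundant perithecial protein, had 2.07 RPKM at S and 2.58 RPKM at A in Δ*mak-1*, against 656 RPKM and 48.3 RPKM. *fsd-1*, a transcription factor of female sexual development, was present but near level, with 74.6 RPKM at S and 58.6 RPKM at A (ratio 1.27, interval 1.13 to 1.44), against 178 RPKM and 60.4 RPKM in the wild type. The rise of melanin synthesis genes was kept in part. Of 7 genes, 3 rose in Δ*mak-1*, 1 passed neither threshold and 3 were under the minimum, while all 7 rose in the wild type. *tnr-1*, a reductase gene of the pathway, had 51.6 RPKM at S and 1.61 RPKM at A in Δ*mak-1*, a ratio of 32.0 (14.5 to 88.3), while the wild type reached 696 RPKM at S and had 2.08 RPKM at A. *per-1*, the polyketide synthase gene that starts the pathway, had 9.21 RPKM at S (232 reads) and no read at A, at least 70.8-fold higher at the floor of 3 reads, but missed the minimum of 10 RPKM, while the wild type had 187 RPKM at S. The scytalone dehydratase gene NCU07823 came nearest to the wild type, with 268 RPKM at S and 10.8 RPKM at A in Δ*mak-1*, against 489 RPKM and 35.9 RPKM. For the 3 genes called, a rise between the stages was therefore still present, and *per-1* had reads at S only. The study picked these genes by lower levels at S in the mutants, so a lower level at S is no independent result.

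Of 23 further female fertility genes, 20 were measured in Δ*mak-1*, where 12 rose (60%, against 32.6% of all genes) and 2 fell (10%, against 9.48%), and 11 of the 12 rose in the wild type, where 19 of 23 did. Under median-of-ratios scaling 9 rose and 4 fell in Δ*mak-1*. Of the 13 above 10 RPKM at A as deposited, 5 rose and 2 fell, and the others had to be higher at S to be measured. The median ratio was 2.59 in Δ*mak-1* and 9.85 in the wild type. NCU07053 rose to 96.2 RPKM at S, against 0.799 RPKM at A, in Δ*mak-1*, and to 690 RPKM at S, against 11.1 RPKM at A, in the wild type. NCU07743 had 47.9 RPKM at S and 10.3 RPKM at A in Δ*mak-1*, a ratio of 4.67 (3.61 to 6.11), and 303 RPKM and 7.83 RPKM in the wild type. NCU03422 stayed at 7.88 RPKM at S and 3.97 RPKM at A in Δ*mak-1*, against 112 RPKM and 1.28 RPKM. Several members thus changed in the wild type's direction and ended below its level at S. The study picked these genes by their levels at S in the mutants against the wild type, so that lower level is no independent result. The wider group annotated in the deposited table as sporocarp development had 17 of 62 measured genes higher (27.4%) and 2 lower in Δ*mak-1*, against a background of 32.6% and 9.48% over all genes, and 12 of the 17 rose in the wild type, where 32 of 58 did. Under median-of-ratios scaling 7 rose and 5 fell in Δ*mak-1*, and 13 rose and 8 fell in the wild type.

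Part of the light-responsive genes changed in the opposite direction to the wild type. Of 16 such genes, 8 rose (50%, against 32.6% of all genes) and none fell in Δ*mak-1*. In the wild type 2 rose and 11 fell, against 46.5% and 10.3% of all genes. The median ratio was 2.19 in Δ*mak-1* and 0.153 in the wild type. Of the 11 that fell in the wild type, 5 rose and 6 passed neither threshold in Δ*mak-1*. The summed level was 15330 RPKM at S and 6107 RPKM at A in Δ*mak-1*, against 1866 RPKM at S and 13789 RPKM at A in the wild type. Under median-of-ratios scaling 6 rose and 1 fell in Δ*mak-1*, and 0 rose and 12 fell in the wild type. *al-1*, the phytoene desaturase gene of the carotenoid pathway, had 5107 RPKM at S and 232 RPKM at A in Δ*mak-1*, a ratio of 22.0 (20.8 to 23.2), against 71.3 RPKM at S and 1050 RPKM at A in the wild type, a ratio of 0.0680. *al-3*, which makes the geranylgeranyl precursor, had 1844 RPKM at S and 50.2 RPKM at A in Δ*mak-1*, a ratio of 36.7, and 2.07 in the wild type. *phr*, a DNA photolyase gene, had 244 RPKM at S and 51.1 RPKM at A in Δ*mak-1*, a ratio of 4.78 (4.25 to 5.39), against 17 RPKM and 147 RPKM in the wild type. In *al-1* and *phr* the mutant was above the wild type at S and below it at A. The photoreceptor gene *vvd* passed neither threshold in Δ*mak-1*, with 1708 RPKM at S and 1056 RPKM at A (ratio 1.62), and fell in the wild type, with 208 RPKM and 1753 RPKM. *cry*, for a cryptochrome, had 39.2 RPKM at S and 35.0 RPKM at A in Δ*mak-1*, and 0.559 RPKM at S and 73.0 RPKM at A in the wild type. The clock gene *frq* had 510 RPKM at S and 210 RPKM at A in Δ*mak-1*, a ratio of 2.42 (2.30 to 2.56), against 120 RPKM and 160 RPKM. Of the 331 entries annotated as responding to light in the deposited table, 305 were measured in Δ*mak-1*, of which 121 rose (39.7%) and 56 fell (18.4%), against 32.6% and 9.48% over all genes. In the wild type 87 of 299 rose and 101 fell, and of these 101 decreases 44 also fell in Δ*mak-1*, 35 passed neither threshold, 2 were under the minimum and 20 rose. In Δ*mak-2*, the 16 genes had 8 higher and 1 lower, with a median of 2.22, against 41.4% and 9.41% of all genes. Under median-of-ratios scaling 4 rose and 3 fell in Δ*mak-2*, with a median of 1.32. Since S was kept in the dark and the light at A is not given, the part of light in these ratios cannot be told apart from that of the medium.

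Conidiation genes split by member. Of 10 measured genes, 4 rose and 4 fell in Δ*mak-1* (40.0% each, against 32.6% and 9.48% of all genes), with a median of 0.815, and in the wild type 2 of 8 rose and 5 fell. Of the 7 above 10 RPKM at A in Δ*mak-1*, 1 rose and 4 fell, and the others had to be higher at S to be measured. *con-10* had the largest ratio in Δ*mak-1* among genes with at least 50 reads, with 12747 RPKM at S and 3.70 RPKM at A (26324 and 7 reads), a ratio of 3443 (1671 to 8565), against 402 RPKM and 106 RPKM in the wild type. *con-6* had 471 RPKM at S and 4.05 RPKM at A in Δ*mak-1*, a ratio of 116 (61.0 to 255), against 43.1 RPKM and 64.5 RPKM. *con-8* rose in Δ*mak-1*, with 1900 RPKM at S and 104 RPKM at A, and fell in the wild type, with 393 RPKM and 1431 RPKM. These 3 genes are expressed during conidiation. *eas*, the hydrophobin of the conidial surface, fell in Δ*mak-1*, with 667 RPKM at S and 2504 RPKM at A, as in the wild type, with 61.9 RPKM and 703 RPKM. *fl*, a transcription factor needed for conidiation, had 29.7 RPKM at S and 52.8 RPKM at A in Δ*mak-1*, a ratio of 0.562 (0.480 to 0.658), and 13.5 RPKM and 53.0 RPKM in the wild type. Among Δ*mak-2* ratios, *con-10* stood at 565, *con-6* at 76.9 and *con-8* at 0.985. The part of a change in the share of conidia or aerial hyphae in these values was not tested.

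The genes that changed in opposite directions in Δ*mak-1* and the wild type were few. Of the 44 that rose in Δ*mak-1* and fell in the wild type, 20 carry the annotation of a response to light, which 101 of the wild type's 643 decreases carry, 44 of them also decreases in Δ*mak-1*. The median levels of the 44 were 99.3 RPKM at S and 16.9 RPKM at A in Δ*mak-1*, against 17.1 RPKM at S and 77.8 RPKM at A in the wild type. *bli-4*, a blue-light-inducible gene, had 246 RPKM at S and 80.1 RPKM at A in Δ*mak-1*, against 11.6 RPKM at S and 1400 RPKM at A in the wild type. *mig-12* had 406 RPKM at S and 6.49 RPKM at A in Δ*mak-1*, a ratio of 62.5 (50.9 to 77.7), against 17.2 RPKM and 55.4 RPKM. Of the 21 that fell in Δ*mak-1* and rose in the wild type, all 21 had a higher level at A in Δ*mak-1* than in the wild type, with a median of 89.7 RPKM against 13.2 RPKM, and 18 of 21 had a lower level at S, with a median of 28.9 RPKM against 44.1 RPKM. Opposite calls force the levels of such genes apart at one stage or both. In Δ*mak-2*, 23 of the 44 also rose, 6 fell, 12 passed neither threshold and 3 were under the minimum. Of the 21, 6 also fell in Δ*mak-2*, 2 rose and 13 passed neither threshold. Over all genes of Δ*mak-2*, 41.4% rose and 9.41% fell. *acu-6*, for the phosphoenolpyruvate carboxykinase of gluconeogenesis, had 9.23 RPKM at S and 144 RPKM at A in Δ*mak-1*, a ratio of 0.0640 (0.0497 to 0.0813), against 38.9 RPKM and 5.97 RPKM in the wild type. *gcy-1*, one of the study's fertility genes, had 61.9 RPKM at S and 1153 RPKM at A in Δ*mak-1*, against 330 RPKM and 106 RPKM. *cut-1* had 29.7 RPKM at S and 784 RPKM at A in Δ*mak-1*, a ratio of 0.0378 (0.0323 to 0.0441), against 135 RPKM and 25.5 RPKM. In these 3 genes the vegetative library of the mutant held the highest of the 4 values.

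Neither glyoxylate cycle nor gluconeogenesis had a gene called higher in Δ*mak-1*. Of 5 genes, 4 were measured in Δ*mak-1* and only *acu-6* was called, as a decrease, while all 5 rose in the wild type (2 of 4 under median-of-ratios scaling). Over all genes as deposited, 32.6% rose and 9.48% fell in Δ*mak-1*, and 46.5% rose in the wild type. *acu-9*, the malate synthase gene, had 22.2 RPKM at S and 17.9 RPKM at A in Δ*mak-1*, a ratio of 1.24 (0.984 to 1.57), against 108 RPKM and 24.0 RPKM in the wild type. *acu-3*, the isocitrate lyase gene, had 60.6 RPKM at S and 48.7 RPKM at A in Δ*mak-1*, a ratio of 1.25, against 174 RPKM and 67.3 RPKM. *fbp-1*, for fructose-1,6-bisphosphatase, had 6.73 RPKM at S and 1.41 RPKM at A in Δ*mak-1*, under the minimum. In Δ*mak-2*, 3 of the 5 rose, against 41.4% of all genes, and 2 of 5 under median-of-ratios scaling.

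Among genes of growth and protein turnover, those that build ribosomes rose most often. In Δ*mak-1* 54.3% of them rose, against 14.8% of spliceosome genes, 9.09% of heat shock and chaperone genes and 32.6% of all genes. Of all genes 9.48% fell in Δ*mak-1*, while in the wild type 46.5% rose and 10.3% fell. Ribosome biogenesis had 35 measured genes in Δ*mak-1*, of which 19 rose and 0 fell at a median ratio of 2.08, and 18 of the 19 rose in the wild type, where 32 of 35 rose at a median of 4.21. Under median-of-ratios scaling 12 rose and 2 fell in Δ*mak-1*, and 21 rose and 1 fell in the wild type. The summed levels were 2246 RPKM at S and 1383 RPKM at A in Δ*mak-1*, against 2331 RPKM at S and 985 RPKM at A in the wild type. With each library scaled by the median of ratios, the sums were 1689 at S and 1494 at A in Δ*mak-1*, and 1885 at S and 1396 at A in the wild type, so the stage at which the strains differed more depends on the scaling. NCU03396 had 84.4 RPKM at S and 39.4 RPKM at A in Δ*mak-1*, against 80.7 RPKM at S and 4.62 RPKM at A in the wild type. NCU08951 had 87.4 RPKM at S and 50.8 RPKM at A, a ratio of 1.72 (1.40 to 2.13), against 70.7 RPKM and 12.5 RPKM. Of the genes of the ribosome itself 2 of 85 rose in Δ*mak-1* (median 1.17) and 3 of 84 in the wild type (median 0.983), while under median-of-ratios scaling 2 fell in Δ*mak-1* and 30 in the wild type. Of 54 measured spliceosome genes 8 rose in Δ*mak-1*, and all 8 were among the 27 of 53 that rose in the wild type, while under median-of-ratios scaling 0 rose and 4 fell in Δ*mak-1*. None of 31 proteasome genes was called in Δ*mak-1* (median 1.09), while 18 of 31 rose in the wild type (median 2.05), although under median-of-ratios scaling only 1 of the 31 rose in the wild type and 2 fell in Δ*mak-1*. Of 11 heat shock and chaperone genes 1 rose in Δ*mak-1* and 7 rose in the wild type, whereas that scaling gave 1 higher and 1 lower in Δ*mak-1* and 4 higher and 1 lower in the wild type. *hsp60*, for the mitochondrial chaperonin, had 104 RPKM at S and 67.2 RPKM at A in Δ*mak-1*, a ratio of 1.54 (1.36 to 1.75), against 120 RPKM and 19.2 RPKM in the wild type.

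**Figure D4:**
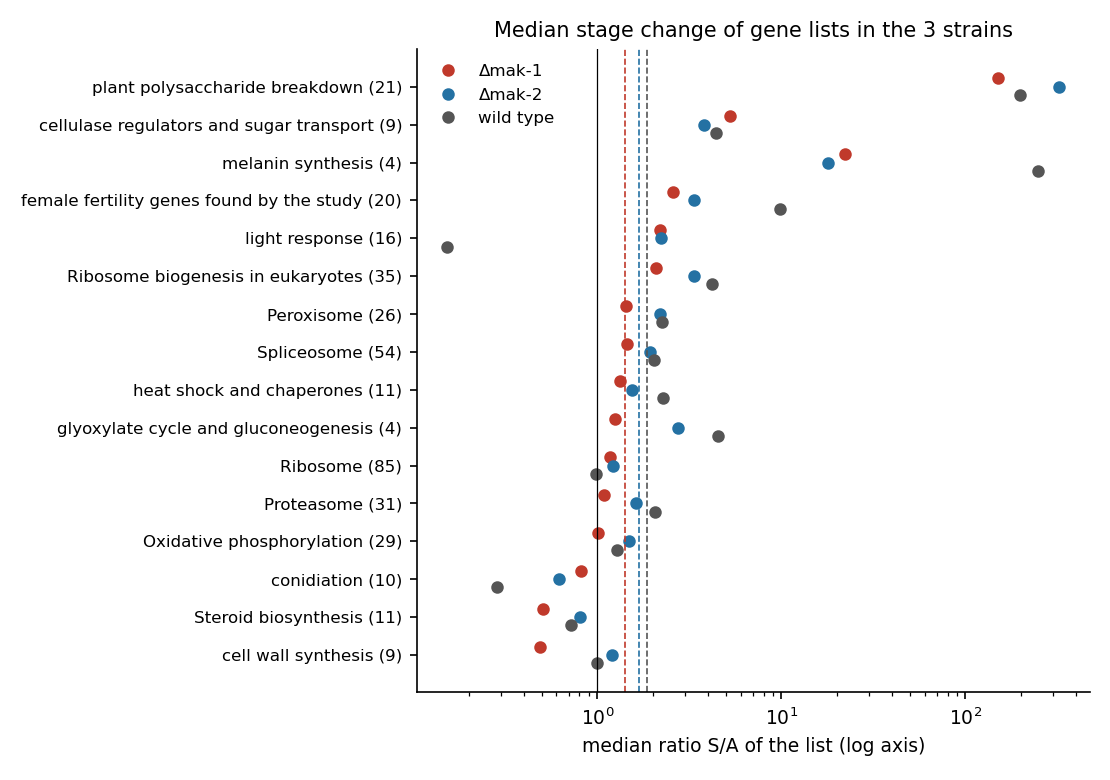
Median S/A ratio (log axis) of 16 gene lists in Δ*mak-1*, Δ*mak-2* and the wild type, each over the list's members above the minimum in that strain, with the number measured in Δ*mak-1* in brackets and dashed lines at each strain's median over all genes. Light response lies at 2.19 in Δ*mak-1* and 0.153 in the wild type, and cell wall synthesis lies lowest in Δ*mak-1*, at 0.488.

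Genes of cell wall synthesis were among those that fell. Of 9 measured, 5 fell (55.6%, against 9.48% of all genes) and none rose (32.6% of all genes) in Δ*mak-1*. In the wild type 3 of 8 fell and 2 rose, against 10.3% and 46.5% of all genes, and all 3 of the wild type's decreases were kept. Under median-of-ratios scaling 5 of 9 fell and none rose in Δ*mak-1* (median 0.340), against 5 lower and 2 higher of 9 in the wild type (median 0.428), so the difference in decreases between the strains was not seen there. The β-1,3-glucanosyltransferase gene *gel-3* had 517 RPKM at S and 2110 RPKM at A in Δ*mak-1*, a ratio of 0.245 (0.237 to 0.253), against 609 RPKM and 4166 RPKM in the wild type. *gel-4*, of the same family, had 18.2 RPKM at S and 166 RPKM at A, a ratio of 0.110 (0.0898 to 0.133), against 37.1 RPKM and 182 RPKM. The β-1,3-glucan synthase gene *do* had 29.0 RPKM at S and 67.6 RPKM at A in Δ*mak-1*, a ratio of 0.429 (0.390 to 0.472), and passed neither threshold in the wild type, with 33.9 RPKM and 45.2 RPKM. The chitin synthase genes *chs-1* and *chs-3* were called in the wild type only. *chs-3* had 29.0 RPKM at S and 17.6 RPKM at A in Δ*mak-1*, a ratio of 1.65 (1.35 to 2.01), against 42.3 RPKM and 6.05 RPKM.

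Of the MAP kinase cascade genes, 4 of 7 measured rose in Δ*mak-1* and 6 of 7 in the wild type (2 of 7 and 3 of 8 under median-of-ratios scaling), with 3 of the wild type's 6 increases shared. Among those 6 is *mak-1* itself, which is deleted in the mutant and could not be shared. Over all genes as deposited, 32.6% rose in Δ*mak-1* and 46.5% in the wild type. In the pheromone response cascade, *mak-2* had 303 RPKM at S and 105 RPKM at A in Δ*mak-1*, a ratio of 2.90 (2.58 to 3.26), against 586 RPKM and 68.2 RPKM in the wild type, a ratio of 8.59. Its upstream kinase genes differed, since *mek-2* rose, at a ratio of 2.04 (1.75 to 2.37), and *nrc-1* passed neither threshold, at 1.10. In the CWI cascade, *mek-1* stood at 440 RPKM at S and 238 RPKM at A in Δ*mak-1*, against 55.6 RPKM and 41.9 RPKM in the wild type, and passed neither threshold in either strain. In the osmotic cascade, *os-2* had 210 RPKM at S and 74.4 RPKM at A, a ratio of 2.82 (2.50 to 3.18), against 2.80 in the wild type. Of the fusion genes, 4 of 14 measured rose (28.6%, against 32.6% of all genes) and 2 fell (14.3%, against 9.48%) in Δ*mak-1*, with 2 of the 4 shared with the wild type, and 3 rose and 3 fell under median-of-ratios scaling. *prm-1*, for a membrane fusion protein, had 101 RPKM at S and 24.7 RPKM at A in Δ*mak-1*, a ratio of 4.08 (3.33 to 5.03), against 155 RPKM and 8.98 RPKM. *ham-7*, for a cell wall sensor acting before MAK-1, had 267 RPKM at S and 68.0 RPKM at A in Δ*mak-1*, a ratio of 3.92 (3.38 to 4.56), and 1.71 in the wild type. The pheromone receptor gene *pre-2* rose to 15.2 RPKM at S, against 0.700 RPKM at A, in Δ*mak-1*, and was under the minimum in the wild type, with 2.67 RPKM and 1.36 RPKM.

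Changes called in Δ*mak-1* and not in the wild type were also seen. Of its 2073 increases, 573 were not called as increases in the wild type, where 217 of them were under the minimum. Of the 573, 303 (52.9%) were increases in Δ*mak-2*, against 41.4% of all genes there. Of its 603 decreases, 251 were not called as decreases in the wild type, where 44 were under the minimum. Of the 251, 80 (31.9%) were decreases in Δ*mak-2*, against 9.41% of all genes. With shared genes included, the wild-type ratio was above 1 for 1919 of the 2073 and below 1 for 524 of the 603. Only 99 of the increases and 64 of the decreases had an absolute log2 ratio under 0.3 in the wild type. NCU08541 had 1596 RPKM at S and 103 RPKM at A in Δ*mak-1*, a ratio of 15.6 (13.8 to 17.6), against 122 RPKM and 103 RPKM in the wild type, and 9.16 as its ratio in Δ*mak-2*. NCU01292 had 506 RPKM at S and 13.1 RPKM at A in Δ*mak-1*, a ratio of 38.6 (25.1 to 62.7), against 59.1 RPKM and 54.0 RPKM. NCU07082, annotated as responding to light, had 33.0 RPKM at S and 250 RPKM at A in Δ*mak-1*, a ratio of 0.132 (0.118 to 0.147), against 75.5 RPKM and 66.7 RPKM. The wild-type ratios of these 3 genes were 1.18, 1.09 and 1.13.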

How the data were processed

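The authors sequenced single-end libraries of mixed RNA from repeat cultures and deposited RPKM values per gene for 6 libraries. CASAVA 1.8 is named in the submitters' processing notes. How reads were aligned and counted, and on which build, is not given in the sources used here. Ratio columns, 3 in number, hold the authors' comparisons between libraries and were not used. Read counts were recovered from the common step of each gene's RPKM values, which were taken as whole within 1e-09 (relative) or 1e-06 (absolute). This gave reads for each of the 8913 entries above 0 in 2 or more libraries. Recovered lengths were multiples of 3 for 85.3% of entries and are read as coding lengths.

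Ratios of RPKM at S to RPKM at A were called past 2 or 0.5, with RPKM above 10 in at least 1 of the 2 libraries, after the thresholds of the study's methods. Intervals are exact (Clopper-Pearson), and a 0 was set at a floor of 3 reads. With 1 library per condition no test was run. Libraries were grouped by the strain and stage in their titles. For names, the RefSeq annotation (assembly NC12) was searched by locus tag (8976 entries matched) and then by old tag (185 matched), which left 711 without a match. Genes named are members of the fixed lists, the 15 largest increases and decreases with at least 50 reads, the 10 genes in each direction with the largest opposite changes, the 10 in each direction level in one strain and changed in the other, the kinases of the cascades and the neighbours of *mak-1*, and a selection of these is printed. The members and the lists were chosen with earlier results of these data known. Alternatives were 3 scalings between libraries, thresholds of 1.5-fold and 3-fold, minima of 1 and 20 RPKM, a pseudocount of 1 RPKM, the whole interval past the threshold, and NCU loci only. The scripts were tested on simulated data. Figures were drawn with matplotlib 3.10.9, and values were computed with scipy 1.17.1, pandas 2.3.3 and numpy 2.4.6 in Python 3.11.15.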

Additional observations from a re-analysis of the deposited data

Results flagged for a closer look

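The genes given here were called in opposite directions in Δ*mak-1* and the wild type, and the difference between the strains was not tested, since each condition is 1 library. There were 44 genes that rose in Δ*mak-1* and fell in the wild type, and 21 that fell in Δ*mak-1* and rose in the wild type. In Δ*mak-2*, 23 of the 44 rose and 6 fell (41.4% and 9.41% of all genes did), while 6 of the 21 fell and 2 rose. Among the 10 largest differences of the first kind, the S/A ratio in Δ*mak-1* was 3.07 for *bli-4*, 22.0 for *al-1*, 62.5 for *mig-12*, 4.94 for *crf5-1*, 18.2 for *con-8*, 4.78 for *phr*, 10.6 for NCU07434, 2.57 for NCU06420, 17.4 for NCU02190 and 4.44 for NCU06915. NCU07434, NCU06420, NCU02190 and NCU06915 carry the annotation of a response to light in the deposited table. Among the 10 of the second kind, the ratio was 0.0378 for *cut-1*, 0.0640 for *acu-6*, 0.0537 for *gcy-1*, 0.214 for NCU09843, 0.180 for NCU08228, 0.285 for NCU06991, 0.141 for NCU02700, 0.496 for NCU00102, 0.394 for *vad-5* and 0.405 for NCU06934. The gene model of NCU09843 overlaps that of the deleted gene.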

How the results depend on the processing

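Increases in Δ*mak-1* numbered 1266 under scaling by the median of ratios, 1343 under the upper quartile and 1313 at a fold threshold of 3, against 2073 as reported. Decreases numbered 1080 and 987 under these scalings, 938 at a threshold of 1.5 and 345 at 3, against 603. Increases shared with the wild type numbered 738 and 769 under these scalings, 2301 at 1.5, 853 at 3 and 949 with the whole interval past the threshold, against 1500. Shared decreases numbered 729 and 686, then 532 at 1.5 and 199 at 3, against 352. Genes that fell in Δ*mak-1* and rose in the wild type numbered 13 under β-tubulin scaling, 83 at 1.5, 7 at 3, 54 at an RPKM minimum of 1 and 12 with the whole interval, against 21. Those that rose in Δ*mak-1* and fell in the wild type numbered 78, 85, 16, 118 and 21 in the same settings, against 44. Of 232 alternative list medians over 39 lists, 190 stayed within the 95% interval of the median over the list's members and 42 moved beyond it, while 0 of the medians past 2-fold crossed 1 and some nearer 1 did, such as that of the proteasome genes, at 0.76 under the median of ratios. No paired analysis was possible because each condition is 1 library. Depth limits genes near 10 RPKM, where a gene of median length holds 45.8 to 50.1 reads in Δ*mak-1*, and ratios against a few reads at A are known only within wide intervals.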
